A study of Caenorhabditis elegans with 12 samples.

Results

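The polysomal RNA of Caenorhabditis elegans carrying the eIF4E mutation ife-1(bn127) was compared with that of the wild-type strain N2. The comparison used the 6 polysomal arrays among the 12 of the series, 3 per genotype, chosen by their labels alone. Polysomal RNA here is the RNA that sedimented beyond 80S in a gradient of 10 to 45% sucrose. Each array held 1 separately harvested culture of worms of mixed stages, with eggs and larvae among them, grown for a last passage of 3 days at 20 °C on E. coli OP50 with added chicken egg yolk. Both genotypes were grown and fractionated alike, and growth sets 1, 2 and 3 each held 1 culture of each genotype. The other 6 arrays held the lighter, nonpolysomal RNA of the same cultures and appear below only where a polysomal difference is set beside the nonpolysomal one.

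eIF4E binds the cap at the 5′ end of an mRNA and brings it to the ribosome. C. elegans has 5 isoforms, IFE-1 to IFE-5. IFE-1 is a germline isoform that binds the germ granule protein PGL-1 and is needed for normal sperm production. The amount of an mRNA in polysomes depends on how much of it the animals contain and on the part of it that ribosomes occupy, and an array of polysomal RNA measures both together.

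On each array 13333 probe sets were measured, which name 10334 genes. Signals are given below on a linear scale after quantile normalization, and differences as log2 of ife-1 over wild type. The standard error beside them is the moderated one of limma, from 3 cultures per genotype. It draws the variance of each probe set toward that of all probe sets. A gene was called higher or lower at a limma adjusted p under 0.05. Log2 signals correlated at 0.973 to 0.987 among the mutant arrays, at 0.921 to 0.972 among the wild-type arrays and at 0.868 to 0.914 between genotypes. Wild-type culture 2 stood apart, with correlations of 0.937 and 0.921 to the other wild-type cultures. The ratio of 3′ to 5′ signal for the gapdh control was 2.2 to 2.62 on the wild-type arrays and 3.66 to 4.39 on the mutant arrays, that for ubiquitin was 30.5 to 36.3 and 16.6 to 28.6, and that for actin overlapped. The part of RNA integrity in the differences below was not tested. Precision is limited by there being only 3 arrays per genotype.

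Markers of the tissues of a mixed worm culture were detected: 23 of 23 measured major sperm protein genes, 38 of 40 maternal genes, 46 of 46 muscle genes, 45 of 45 intestinal genes, 42 of 44 neuropeptide genes and 80 of 92 cuticle collagens were called present on all 6 arrays. Measured genes had passed the authors' filter on detection, so present calls among them were largely set by that filter. As drawn up, these lists held 31, 43, 49, 54, 62 and 156 genes. A listed gene could be unmeasured through that filter, for lack of a probe set, or because its probe set was assigned to several genes. These reasons were not separated. Other lists were covered less fully, with 27 of 58 other sperm genes and 25 of 61 embryonic patterning genes measured.

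Polysomal RNA differed between the genotypes for many genes. In the mutant 1892 of the 10334 genes were higher (18.3%) and 1761 were lower (17.0%), and among the 13333 probe sets 2519 were higher (18.9%) and 2132 lower (16.0%). All 3 mutant arrays lay above all 3 wild-type arrays for 28.4% of genes and below them for 23.5%. Large differences were mostly decreases. More than 4-fold changes were called for 29 genes that rose and 158 that fell, more than 8-fold changes for 4 and 29, and more than 16-fold changes for 1 and 14. The median over all genes was 0.05 on the log2 scale. The counts depended on which cultures were used. Without mutant culture 1 they were 912 probe sets higher and 1100 lower, without mutant culture 3 they were 1057 and 1209, and without wild-type culture 1 they were 1397 and 1507. Without the whole of set 1 only 34 and 135 were called, without set 3 there were 171 and 442, and without set 2, which holds the wild-type culture that stood apart, there were 3114 and 2845.

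**Figure D1:**
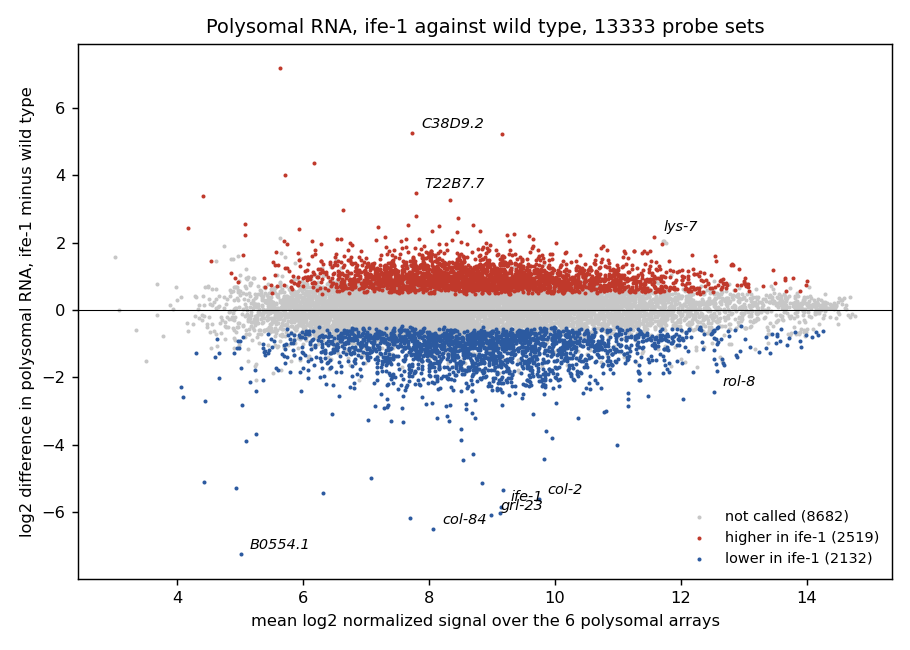
Log2 difference in polysomal RNA, ife-1 minus wild type, against the mean log2 normalized signal over the 6 polysomal arrays, for 13333 probe sets. Red points are the 2519 called higher and blue points the 2132 called lower. The lowest point is B0554.1 at -7.25. The highest, at 7.17, is a probe set assigned to several genes, and the highest with 1 gene is C38D9.2 at 5.24.

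The mutated gene came first as a check of the labels. The ife-1 probe set read 4175, 4241 and 4452 in wild-type cultures 1 to 3 and 63.6, 98.3 and 67.2 in the mutant cultures. It was called present on all 3 wild-type arrays and on 0 of 3 mutant arrays, so its polysomal signal was at least 57.2-fold lower (log2 difference -5.84 ± 0.21, adjusted p = 2.74e-05). The position of its probes relative to the bn127 lesion was not examined here. Of the 5 isoforms, 2 were higher and 1 lower, where 18.3% and 17.0% of all genes were called. The mRNA of ife-3, the isoform needed for viability, read 1839, 2723 and 2001 in the wild-type cultures and 6729, 4503 and 6876 in the mutant. All mutant values lay above all wild-type values, and the difference was 1.46 ± 0.24 (adjusted p = 0.00488). The germline isoform ife-5 read 134, 92.1 and 123 against 227, 189 and 203, a difference of 0.84 ± 0.20 (adjusted p = 0.0163), and this call was lost without mutant culture 1 or 3. The ife-3 call held without any single culture, and was lost without set 1 or set 3. For ife-2 and ife-4 the genotypes overlapped (-0.35 ± 0.24 and -0.32 ± 0.32, adjusted p = 0.286 and 0.463). In nonpolysomal RNA the differences were 0.98 for ife-2, 1.07 for ife-3, 0.76 for ife-4, 0.96 for ife-5 and -4.83 for ife-1.

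The genes with the largest rises came from several families. C38D9.2 read 34.7, 42.5 and 28 in the wild-type cultures and 1138, 1621 and 1214 in the mutant, was called present on no wild-type array, and was at least 37.9-fold higher (5.24 ± 0.23, adjusted p = 7.93e-05). T22B7.7 read 60.8, 79.7 and 60.7 against 908, 654 and 677 (3.47 ± 0.21, adjusted p = 0.000316). E02C12.8 read 11.4, 3.98 and 6.22 against 88.8, 54.8 and 67.8, a rise of 3.40 ± 0.38 from a level called present on only 1 of 3 wild-type polysomal arrays. The nematode-specific peptide gene nspe-7 rose by 3.28 ± 0.26, from 79.3, 120 and 117 to 902, 1352 and 836. Next came C16C10.1 with 2.97 ± 0.55. The beta-tubulin gene tbb-6 was even across the wild-type cultures, at 82.6, 85.8 and 85.1, and stood at 566, 828 and 431 in the mutant (2.80 ± 0.25, adjusted p = 0.000945). The scramblase family gene scrm-4 rose by 2.74 ± 0.21, the ABC transporter gene haf-6 by 2.54 ± 0.26 and the cytochrome P450 gene cyp-35A2 by 2.48 ± 0.20. C27C12.3, fbxb-97, dct-7, F14D7.2 and C49G7.10 rose by 2.48, 2.40, 2.34, 2.34 and 2.32. The cell death gene ced-13, which encodes a BH3-only protein, read 2.31, 19.1 and 10.7 against 43.7, 38.3 and 44.5. No wild-type array called it present, so it was at least 3.33-fold higher (adjusted p = 0.0267), and its call held in only 2 of the 6 fits that leave out 1 array. The other 14 of these 15 genes kept their call in all 6 such fits. Among probe sets, 5 rose more than 16-fold. Besides C38D9.2 these were 2 that the annotation assigns to several genes and 2 that it assigns to none, so they are not named.

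Of the 15 genes with the largest falls 6 encode cuticle collagens and 3 encode ground-like (GRL) proteins, a hedgehog-related family. The collagen gene col-84 read 1815, 3224 and 2813 in the wild-type cultures and 11.2, 88.9 and 22.2 in the mutant, and was at least 90.5-fold lower (-6.50 ± 0.67, adjusted p = 0.00133). For col-102 the values were 1212, 1950 and 2345 against 54.8, 25.8 and 10.3, at least 70.8-fold lower. The dauer collagen gene col-2 read 4247, 8964 and 5609 against 80.7, 177 and 129 (-5.61 ± 0.36, adjusted p = 0.000405). The genes col-35, col-50 and col-37 gave differences of -5.44, -4.97 and -4.26, of which the first pair had no present call in the mutant and were at least 42.2-fold and 31.4-fold lower. Among the ground-like genes, grl-23 read 3443, 7146 and 3030 against 32.6, 255 and 28.1 (-6.09 ± 0.80, adjusted p = 0.00249). In the mutant culture of set 2 it stood far above the other mutant cultures, though still below every wild-type value. The values of grl-20 were 3322, 6289 and 4354 against 49.8, 137 and 48.0 (-6.03 ± 0.43), and those of grl-25 were 3367, 6613 and 3345 against 154, 314 and 154 (-4.43 ± 0.37). For these 3 genes culture 2 gave the highest value in both genotypes. B0554.1 read 467, 618 and 218 against 1.59, 4.86 and 2.31. Its measured difference of -7.25 was the largest among all genes, but since it had no present call on the mutant polysomal arrays it is given as at least 41.8-fold lower. The lectin gene clec-101 and the genes M6.11, F58E6.4 and F07G11.1 were at least 13.2-fold, 13.3-fold, 21.8-fold and 13.3-fold lower. Together with ife-1 these make the 15 largest falls. All of them kept their call without any single array, and 10 had no present call on any mutant polysomal array. Probe sets of 3 of the 15 risers and 5 of the 15 fallers carry the suffix _s_at or _x_at in place of a plain _at, so other transcripts may share their signal. Among them are nspe-7, B0554.1 and col-102, each with _x_at.

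**Figure D2:**
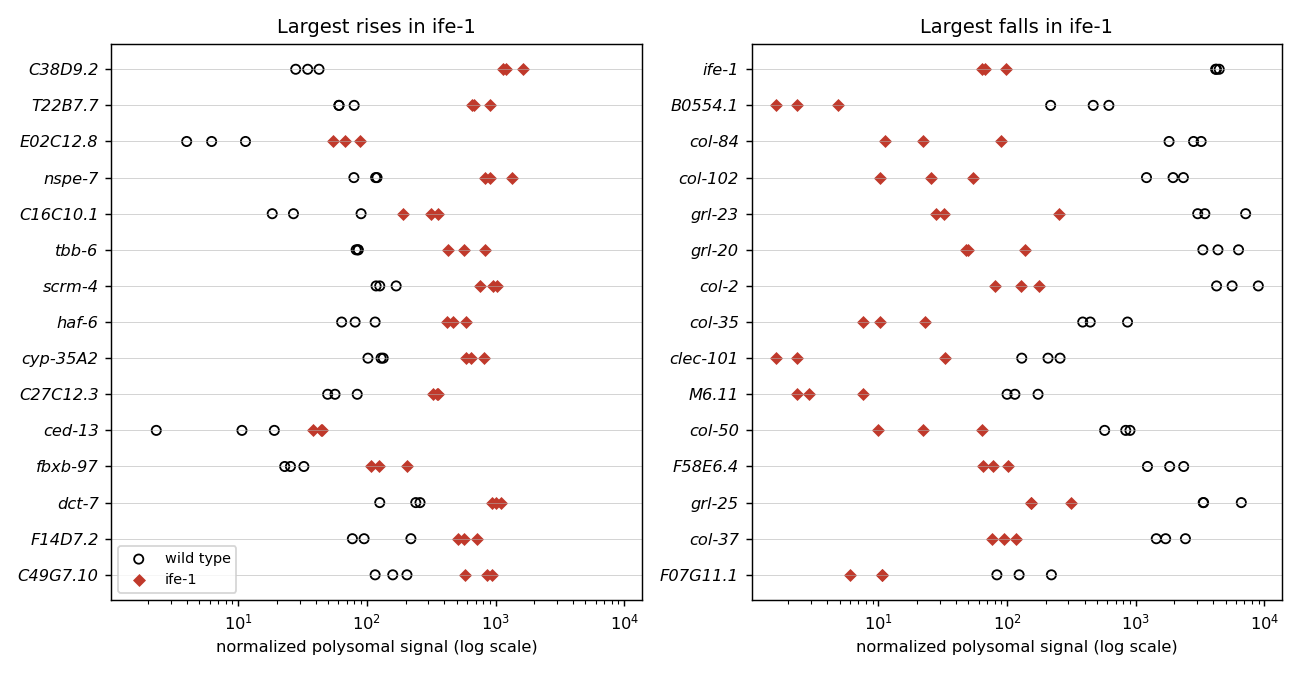
Normalized polysomal signal on a log axis for the 15 genes with the largest rises (left) and the 15 with the largest falls (right). Open circles are the 3 wild-type cultures and red diamonds the 3 mutant cultures. The genes were chosen among those whose genotypes do not overlap, and col-84 spans 11.2 to 88.9 in the mutant against 1815 to 3224 in wild type.

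The gene groups of the germline rose together, apart from those of sperm. In a whole-worm lysate fewer cells of a type and less RNA per cell cannot be told apart. Measured members are those with a probe set assigned to them alone that passed the authors' filter on detection. Among the 43 genes of maternal RNA-binding proteins and cell fate 40 were measured, and 32 were higher and 0 lower, with a median of 1.06 on the log2 scale against 0.05 over all genes. Over all genes 18.3% were higher and 17.0% lower. The oocyte zinc-finger gene oma-2, needed for oocyte maturation, read 1360, 1237 and 1388 in the wild-type cultures and 5416, 3586 and 4693 in the mutant (1.76 ± 0.20, adjusted p = 0.00165). The RNA-binding protein gene spn-4 was nearly constant within each genotype, at 2642, 2327 and 2290 against 5719, 5366 and 5319 (1.18 ± 0.16, adjusted p = 0.00281). Further members are named for their roles, after their values were seen. The oma-2 paralog oma-1 rose by 1.5 ± 0.28, the PUF protein gene puf-5 by 1.69 ± 0.30, the oocyte regulator lin-41 by 1.67 ± 0.33, the translational repressor gene gld-1 by 1.15 ± 0.17, mex-5 by 1.31 ± 0.21 and pos-1 by 0.94 ± 0.24. The lowest member was the polarity kinase gene par-1, with overlapping genotypes and a difference of -0.17.

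Of 32 germ granule and small RNA genes 29 were measured, and 20 were higher and 0 lower (median 1.06). The shares over all genes were 18.3% and 17.0%. The nucleotidyltransferase gene rde-3, which acts in RNA interference, read 183, 191 and 200 against 508, 540 and 446 (1.38 ± 0.16, adjusted p = 0.00185), and the helicase gene mut-14 rose by 1.34 ± 0.19. The P granule gene pgl-1 read 663, 609 and 623 against 2675, 1398 and 2486 (1.74 ± 0.26, adjusted p = 0.00369), and its paralog pgl-3 rose by 1.45 ± 0.28. The Argonaute genes csr-1 and prg-1 rose by 1.29 ± 0.32 and 1.30 ± 0.25. These 4 genes are named after their values were seen. The Argonaute alg-4, which acts in sperm, was the lowest member: it read 474, 103 and 720 in the wild-type cultures and 236, 217 and 301 in the mutant, with overlap (-0.39 ± 0.64, adjusted p = 0.654), and its wild-type culture 2 was far below the others.

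Of 42 meiotic chromosome genes 38 were measured, and 25 were higher and 0 lower (median 0.85). Counts in this paragraph stand beside 18.3% of all genes higher and 17.0% lower. The meiotic checkpoint ATPase gene pch-2 read 193, 226 and 239 against 720, 539 and 683 (1.56 ± 0.19, adjusted p = 0.002), and the synaptonemal complex gene syp-3 read 179, 162 and 156 against 504, 371 and 486 (1.45 ± 0.19, adjusted p = 0.00238). Another synaptonemal complex gene, syp-2, gave -0.04 with overlap. Of 20 eggshell and egg activation genes 18 were measured, and 10 were higher and 0 lower (median 0.96). The chitin synthase gene chs-1 read 437, 511 and 435 against 1753, 1343 and 1669 (1.78 ± 0.18, adjusted p = 0.00129), and cbd-1, for a chitin-binding eggshell protein, read 3992, 4986 and 4577 against 12646, 9665 and 11682 (1.32 ± 0.19). Of 71 replication and mitosis genes, a list not chosen as a germline marker, 67 were measured, and 44 were higher and 0 lower (median 0.73). All 67 differences were positive. The cyclin gene cyb-2.2 rose by 1.40 ± 0.21 and the kinesin gene klp-19 by 1.12 ± 0.18. Of the yolk protein genes, which the adult intestine expresses, vit-1 read 2940, 2586 and 2390 against 8268, 8241 and 7848 (1.63 ± 0.17, adjusted p = 0.00125). The other 4 measured, vit-2, vit-4, vit-5 and vit-6, did not pass, with differences of 0.30 to 0.78, and all but vit-2 of these are named after their values were seen.

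In the maternal, germ granule, meiotic, eggshell and replication lists the mutant culture of set 2 was the nearest to the wild type. Among meiotic genes it was within 0.01 of the nearest. For maternal genes the list mean stood 0.48, 0.47 and 0.51 below its 6-array mean in wild-type cultures 1 to 3 and 0.57, 0.29 and 0.62 above it in the mutant cultures. The counts of higher genes fell to 20 maternal, 12 germ granule, 11 meiotic and 13 replication genes without mutant culture 1, and to 20, 13, 14 and 14 without mutant culture 3. The replication count was 24 without wild-type culture 1. With set 1 left out 0 genes of these lists or of the eggshell list were called. With set 3 left out 4 maternal, 1 germ granule, 3 meiotic, 2 eggshell and 0 replication genes were called. The list medians without set 1 were 0.99, 1.06, 0.81, 0.85 and 0.65 for maternal, germ granule, meiotic, eggshell and replication genes.

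Sperm genes were the germline exception, and their values followed 1 culture. Major sperm proteins (MSPs) are the main cytoskeletal proteins of nematode sperm. Of 31 MSP genes 23 were measured, all 23 differences were negative (median -1.01), and 8 were called lower, where 17.0% of all genes were. The gene msp-3 read 15312, 4700 and 16064 in wild-type cultures 1 to 3 and 2951, 4304 and 3265 in the mutant (-1.60 ± 0.46, adjusted p = 0.03). Wild-type culture 2 thus lay near the mutant cultures and far below wild-type cultures 1 and 3. The summed signal of the 23 genes was 444153, 202027 and 414746 in the wild-type cultures and 161751, 195739 and 172999 in the mutant. Without wild-type culture 2 the number called lower was 22, with a median of -1.44. Without any other single array it was 0, and with the growth set as a replicate block it was 1. With signals as deposited it was 14 and with median scaling 15. None of the 23 probe sets carries the plain suffix _at, so near-identical family members may share signal. Of 58 sperm genes outside this family 27 were measured, and 3 were called lower and 0 higher (median -1.01). That is a smaller share than the 17.0% of all genes that were lower. The peptide gene nspd-9 read 960, 96.9 and 855 against 45.8, 88.1 and 45.6 (-2.92 ± 0.82, adjusted p = 0.028), and the sperm surface protein gene spe-9, needed for fertilization, read 125, 91.5 and 154 against 76.8, 78.9 and 51.2. The third, spe-4, encodes a sperm presenilin (-1.04 ± 0.34) and is named after its values were seen. The summed signal of the 27 genes in wild-type culture 2, at 14721, was below that of every mutant culture (16745 to 22359), while wild-type cultures 1 and 3 had 67846 and 71973. Without wild-type culture 2 the number called lower was 24, without any other single array 0, and with the replicate block 1.

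**Figure D3:**
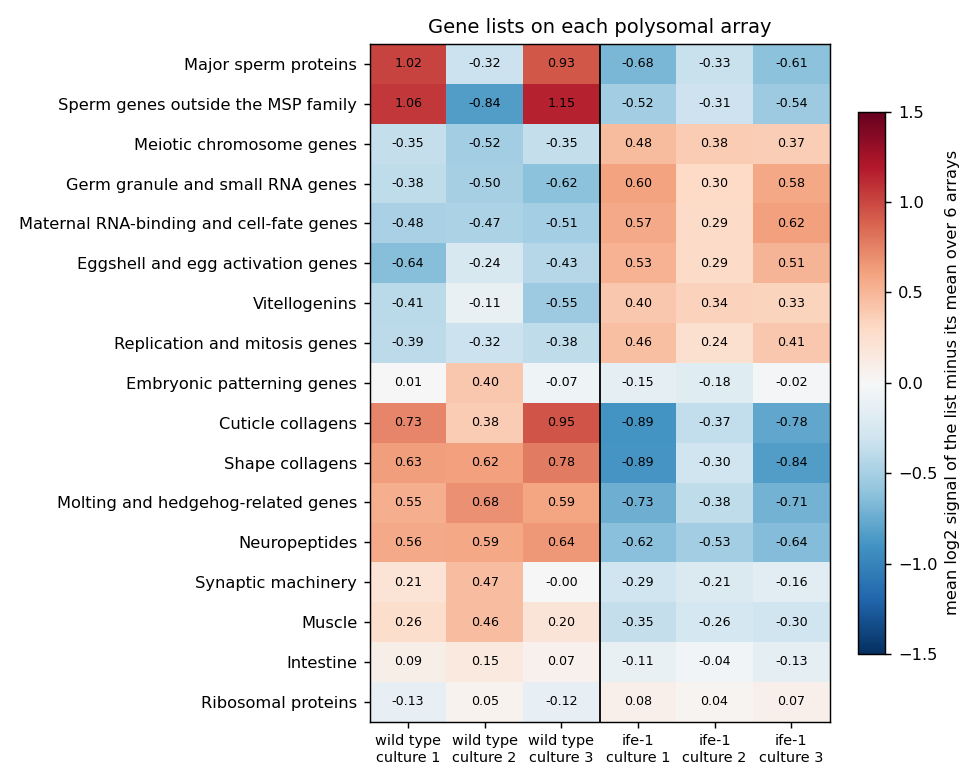
Mean log2 signal of 17 gene lists on each of the 6 polysomal arrays, as the deviation from the list's mean over the arrays. Both sperm lists are high in wild-type cultures 1 and 3 (0.93 to 1.15) and low in wild-type culture 2 (-0.32 and -0.84), while the oocyte, meiotic and mitotic lists are low in all 3 wild-type cultures and high in all 3 mutant cultures.

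Cuticle genes were mostly lower in the mutant, and cuticle collagens spanned the widest range of the 34 lists. The cuticle is a collagen coat that is rebuilt at each molt. Of 156 cuticle collagen genes 92 were measured, and 54 were lower and 4 higher (median -1.22 against 0.05 over all genes). Over all genes 17.0% were lower and 18.3% higher. Besides the extreme members above, col-123 read 1082, 1259 and 1212 against 120, 165 and 144 (-3.06 ± 0.19, adjusted p = 0.000316). The 4 that rose were col-101, col-143, col-95 and col-8, the last pair named after their values were seen. Of these col-101 read 1717, 1498 and 1889 against 7093, 7274 and 5585 (1.96 ± 0.19, adjusted p = 0.00117) and col-143 read 3869, 3427 and 4733 against 6916, 10363 and 7518 (1.03 ± 0.22). Of 21 collagen genes known for body shape mutants 18 were measured, and 13 were lower and 0 higher (median -1.59). The gene rol-8 read 14006, 14722 and 12338 against 2224, 3563 and 2078 (-2.42 ± 0.24, adjusted p = 0.00122), and dpy-8 read 1171, 1490 and 1712 against 305, 311 and 284 (-2.27 ± 0.19). A pair of bright collagens did not pass: sqt-3 (-0.23 ± 0.17, adjusted p = 0.316) and dpy-13 (-0.21 ± 0.16, adjusted p = 0.347), both named after their values were seen. Of 134 molting and hedgehog-related genes 76 were measured, and 49 were lower and 1 higher (median -0.93). Neither grl-3 nor grl-19 was called present on any mutant polysomal array, and they were at least 9.67-fold and 7.57-fold lower. The member that rose was ptr-2, a patched-related gene (0.88 ± 0.16, adjusted p = 0.00694). The number of cuticle collagens called higher was 2 with median scaling, without wild-type culture 1 or without mutant culture 3. The number of cuticle collagens called lower was 32 without mutant culture 1 and 35 without mutant culture 3, and 12 and 17 without sets 1 and 3. Shape collagens then numbered 4 and 5, and molting genes 7 and 20. Of the 92 cuticle collagen probe sets 46 carry suffixes other than a plain _at, so their signal may be shared. No present call on the mutant polysomal arrays was made for 5 of the 92 genes.

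Neuronal and muscle genes were lower too. Of 62 neuropeptide genes 44 were measured, and 38 were lower and 0 higher (median -1.27). Counts in this paragraph stand beside 17.0% of all genes lower and 18.3% higher. All 44 differences were negative, from -2.32 to -0.13. The gene flp-1, which encodes FMRFamide-like peptides and is named after its values were seen, was the lowest of them, at 3042, 3922 and 2836 against 555, 989 and 490 (-2.32 ± 0.29, adjusted p = 0.00209). The values of nlp-35 were 742, 905 and 863 against 175, 226 and 196 (-2.08 ± 0.18), and those of flp-15 were 1070, 1090 and 1161 against 326, 368 and 318 (-1.72 ± 0.16). Of 46 synaptic genes 37 were measured, and 12 were lower and 0 higher (median -0.39). The proprotein convertase gene egl-3, whose product matures neuropeptides, read 3084, 3836 and 3477 against 1215, 1695 and 1343 (-1.30 ± 0.19, adjusted p = 0.00359). The gene unc-25, for the enzyme that makes GABA, fell by 1.34 ± 0.21 on the log2 scale. The kinesin gene unc-116 overlapped between genotypes (0.34 ± 0.21, adjusted p = 0.238). Of 49 muscle genes 46 were measured, and 22 were lower and 0 higher (median -0.59). The troponin C gene tnc-2 read 2298, 2014 and 2406 against 715, 788 and 729 (-1.59 ± 0.16, adjusted p = 0.00133), and unc-95, for a muscle attachment protein, read 621, 703 and 854 against 217, 223 and 196 (-1.77 ± 0.18). The pharyngeal myosin gene myo-1 fell by 1.34 ± 0.28 on the log2 scale. The paramyosin gene unc-15 did not pass (-0.10 ± 0.19, adjusted p = 0.684), and both are named after their values were seen. Neuropeptides called lower numbered 33 to 39 over the 6 fits without 1 array, but 5 and 19 without sets 1 and 3. Synaptic genes then numbered 0 and 3. Muscle genes numbered 12 and 14 without mutant cultures 1 and 3, and 1 and 2 without sets 1 and 3.

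Intestinal genes were called in both directions. Of 45 measured intestinal genes 5 were higher and 9 lower (median -0.20), where 18.3% and 17.0% of all genes were called, and the higher count ran from 1 without mutant culture 1 to 9 without wild-type culture 2. The cathepsin B-like protease gene cpr-6 read 5797, 5874 and 7009 against 10790, 11500 and 10440 (0.81 ± 0.17, adjusted p = 0.00997), and the aspartyl protease gene asp-13 rose by 0.76 ± 0.19. The saposin-like gene spp-18 read 1967, 1268 and 2022 against 319, 502 and 301 (-2.24 ± 0.27, adjusted p = 0.00205), and cdr-2, of a cadmium-responsive family, fell by 1.34 ± 0.16 on the log2 scale. Other families also held genes moving both ways, and their counts stand beside the same shares of all genes. Among 122 measured immune effectors and lectins 20 were higher and 22 lower, both near those shares. The lysozyme gene lys-7 read 1482, 1344 and 1485 against 6458, 7077 and 5945 (2.17 ± 0.16, adjusted p = 0.000536), and clec-97 rose by 1.84 ± 0.16, while clec-70 read 461, 359 and 408 against 86.0, 92.6 and 82.9 (-2.22 ± 0.17) and clec-42 fell by 2.35 ± 0.22 on the log2 scale. The lower count of this list was 49 without wild-type culture 2, and the higher count was 13 and 12 without mutant cultures 1 and 3. Among 104 detoxification enzymes 17 were higher and 26 lower. The glucuronosyltransferase gene ugt-41 read 128, 119 and 131 against 522, 435 and 448 (1.89 ± 0.17, adjusted p = 0.000929), and the glutathione transferase gene gst-6 read 1293, 1022 and 1260 against 294, 360 and 320 (-1.87 ± 0.18). Among 108 fatty acid metabolism genes 11 were higher and 24 lower. The largest fall was that of the elongase gene elo-4, from 1390, 1798 and 1364 to 207, 250 and 194 (-2.80 ± 0.19, adjusted p = 0.000417). Without mutant culture 1 the higher and lower counts were 9 and 15 for detoxification and 4 and 12 for fatty acid genes, and without mutant culture 3 they were 9 and 15, and 6 and 13. For fatty acid genes the higher count was 17 without wild-type culture 2 and 7 without wild-type culture 1. Of 34 transthyretin-related genes, a nematode family of secreted proteins, 21 were lower and 1, ttr-51, higher (median -0.87), with 9 lower without mutant culture 1, 11 without mutant culture 3 and 12 without wild-type culture 1.

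Stress, cell death and F-box genes are read against the 18.3% of all genes that were higher and the 17.0% that were lower, and several of their shares are near these. Of 61 measured heat shock protein and chaperone genes 14 were higher and 7 lower (median 0.26). The small heat shock protein gene hsp-12.1 gave the lowest difference, with 753, 856 and 1039 against 181, 176 and 221 (-2.19). The heat shock transcription factor gene hsf-1 read 244, 281 and 196 against 536, 429 and 451 (0.98 ± 0.20, adjusted p = 0.00934). The higher count of 14 was 7 with the replicate block, 9 with signals as deposited, 7 with median scaling, 2 or 3 without mutant culture 1, mutant culture 3 or wild-type culture 1, 6 without wild-type culture 3 and 9 without mutant culture 2. Among 22 oxidative and metal stress enzymes 3 were higher and 6 lower. The gene gcs-1, for the enzyme that starts glutathione synthesis, read 121, 264 and 151 against 692, 359 and 794 (1.78 ± 0.38, adjusted p = 0.0114). The mitochondrial superoxide dismutase gene sod-3 read 882, 456 and 973 against 242, 174 and 246 (-1.75 ± 0.31, adjusted p = 0.0063). The iron-sulfur scaffold gene iscu-1 read 676, 768 and 727 against 336, 346 and 394 (-1.02 ± 0.16, adjusted p = 0.00456). Without mutant culture 1 the counts of these enzymes were 0 higher and 3 lower, and without mutant culture 3 they were 1 and 3. Of 26 cell death genes 6 were higher and 0 lower, among them the caspase gene ced-3, at 43.6, 66.8 and 62.7 against 282, 117 and 227 (1.79 ± 0.34, adjusted p = 0.00768), and the nuclease gene crn-1 (0.91 ± 0.18). That count was 2 without mutant culture 1 or 3, 3 without mutant culture 2 and 10 without wild-type culture 2. Of 137 F-box and related genes 29 were higher and 6 lower, led by fbxb-97 above and, below, math-22, which was called present on no mutant polysomal array and was at least 4.42-fold lower. Without mutant cultures 1 and 3 the higher count was 12 and 13.

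Few genes of the cytosolic ribosome were called. Of 74 measured cytosolic ribosomal protein genes 0 were higher and 1, rpl-23A.1, lower, where 18.3% and 17.0% of all genes were called. The values of rpl-23A.1 were 7745, 7811 and 10500 against 3400, 5600 and 4116 (-1.01 ± 0.24, adjusted p = 0.016). By their differences 65 of the 74 were above 0, but the list median of 0.15 became -0.00 with signals as deposited and -0.05 with median scaling, so it has no settled direction. Of 27 initiation factor genes other than eIF4E 6 were higher and 0 lower (median 0.27). The eIF3 subunit gene eif-3.I read 314, 373 and 340 against 1281, 652 and 1067 (1.49 ± 0.26, adjusted p = 0.00601). This list also counts ncbp-1, for a nuclear cap-binding protein, which read 1006, 1223 and 508 against 1920, 2221 and 2094 (1.28 ± 0.32, adjusted p = 0.0188). The ncbp-1 call was lost without mutant culture 1, 2 or 3. Of 29 elongation factor and tRNA synthetase genes 8 were higher and 0 lower (median 0.43), or 4 with the replicate block. The glutaminyl-tRNA synthetase gene qars-1 read 1881, 1947 and 1580 against 3424, 3221 and 3376 (0.90 ± 0.17). Without mutant culture 1 or 3 the higher count was 1 in each of these 2 lists, and without wild-type cultures 1 and 3 it was 3 and 3 for initiation and 2 and 5 for elongation. Of 57 mitochondrial ribosomal protein genes 0 were higher and 6 lower, among them mrpl-12 (-1.12 ± 0.22), and of 46 oxidative phosphorylation genes 1 was higher and 8 were lower, among them cox-17 (-0.95 ± 0.17). Against the 17.0% of all genes, the lower share was smaller for the mitochondrial ribosome and near it for oxidative phosphorylation. The lower counts of these lists were 1 and 1 without mutant culture 1, 3 and 1 without mutant culture 3, and 3 and 5 without wild-type culture 1, and for the mitochondrial ribosome 11 without wild-type culture 2. The higher and lower counts for the mitochondrial ribosome were 3 and 4 with signals as deposited, 2 and 4 with median scaling or scaling on the bacterial controls, and 3 and 9 among brighter probe sets. Of 33 proteasome genes 6 were higher and 0 lower, among them rpn-7, for a subunit of the regulatory particle, with 0.63 ± 0.16. With the replicate block 3 were called, and without mutant culture 1, mutant culture 3 or wild-type culture 1 the count was 0. Of 38 splicing genes 7 were higher and 0 lower, among them mog-5 and prp-8 (1.13 ± 0.20 and 1.06 ± 0.20), or 3 or 4 without mutant culture 1, mutant culture 3 or wild-type culture 1. The higher shares of the proteasome and splicing lists were near the 18.3% of all genes. Of 23 histone genes, whose near-identical copies can share probes, 2 were higher and 6 lower, with his-67 at 1.92 ± 0.24 and the histone H3.3 gene his-71 at -1.35 ± 0.18. The lower count was 11 without wild-type culture 2, and 2 or 3 without mutant culture 1, mutant culture 3 or wild-type culture 1. Of 25 embryonic patterning genes 1 was higher and 4 lower, with sdz-24 at 1041, 1559 and 1125 against 257, 317 and 255 (-2.15 ± 0.21), and of 122 nuclear hormone receptors 7 were higher and 12 lower. The lower share of patterning genes was near that of all genes, and both shares of the receptors were smaller than those of all genes. For the receptors these counts were 1 and 4 without mutant culture 1, 1 and 5 without mutant culture 3, and 3 and 7 without wild-type culture 1. The lower count of patterning genes was 8 with median scaling and 2 without mutant culture 1, mutant culture 3 or wild-type culture 1.

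**Figure D4:**
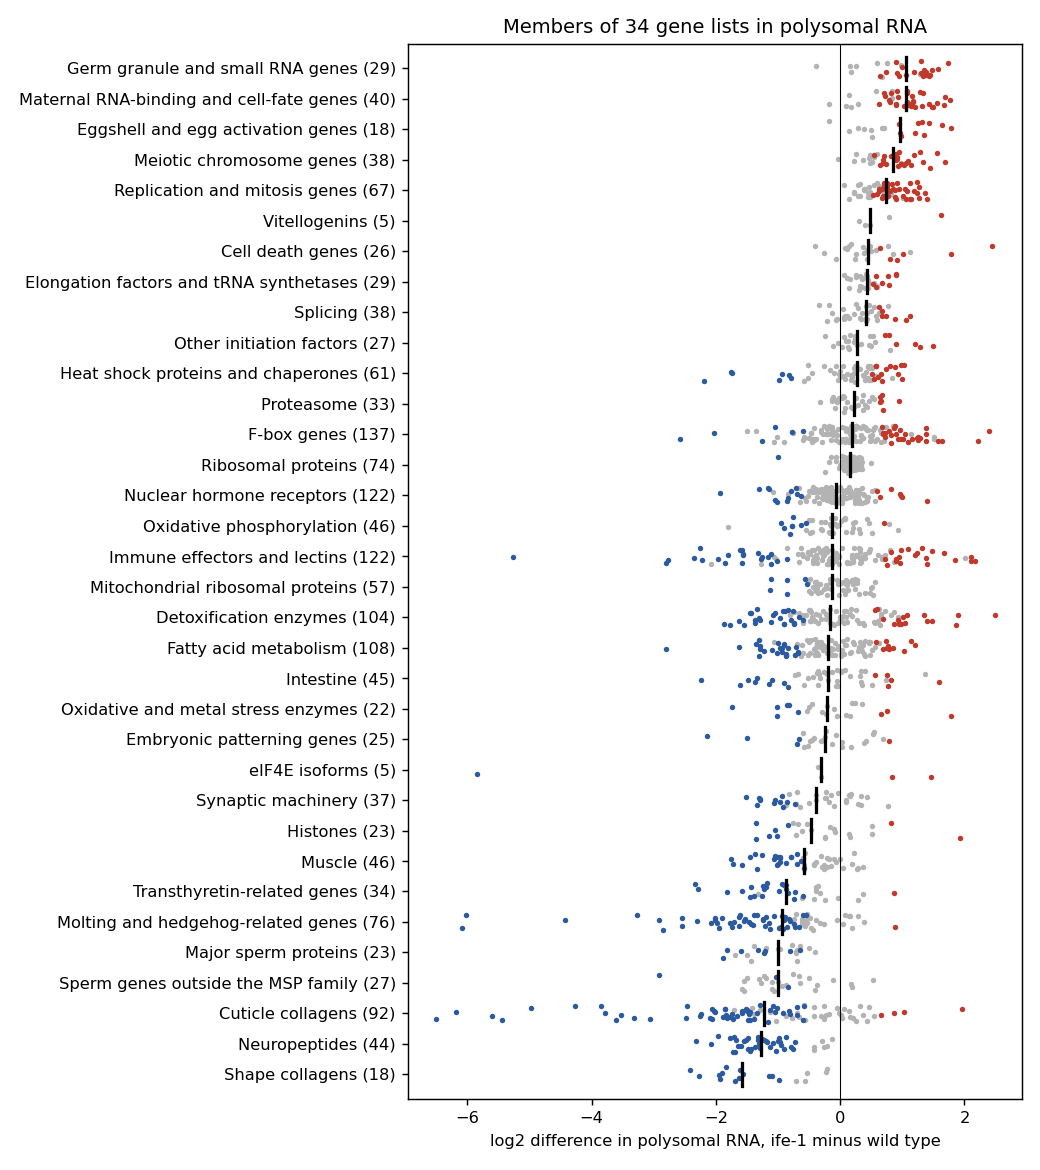
Log2 difference in polysomal RNA, ife-1 minus wild type, of the measured members of 34 gene lists, with the number measured in brackets. Each point is 1 gene, red where called higher, blue where called lower and grey otherwise, and black bars are list medians. The germline lists other than those of sperm lie at the top with medians up to 1.06. Shape collagens (-1.59), neuropeptides (-1.27) and cuticle collagens (-1.22) lie at the bottom, and both sperm lists (-1.01) lie next to them.

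The same cultures' nonpolysomal RNA was set beside these differences as values, since both fractions come from the same worms. Of the 15 genes with the largest polysomal rises all 15 also had a higher mean in nonpolysomal RNA, by 0.29 to 5.81, and all 15 with the largest falls had a lower mean there, by -3.15 to -6.56. For some risers the genotypes overlapped there, as for dct-7 with 121, 180 and 169 against 205, 206 and 158. List medians in nonpolysomal RNA were 0.66 for maternal genes, 0.91 for germ granule genes, 0.52 for meiotic genes, -1.56 for cuticle collagens, -1.97 for shape collagens, -1.21 for neuropeptides and -0.51 for muscle. For some lists the fractions were further apart. Major sperm proteins had a median of -1.01 in polysomal and -0.23 in nonpolysomal RNA, proteasome genes had 0.22 and 0.76, and intestinal genes had -0.20 and -0.65. The gap was widest for the 5 eIF4E isoforms, with -0.32 and 0.96. A test of the genotype difference between the fractions called 17 of the 13333 probe sets (0.128%) and 13 of the 10334 genes (0.126%), and 3 of the 147 genes covered by the naming rule: cyp-35A2, elo-4 and iscu-1. For iscu-1 the signs were opposite, with -1.02 in polysomal and 1.47 in nonpolysomal RNA. In the eIF4E, sperm, proteasome and intestinal lists 0 genes passed that test after adjustment. For ife-1 to ife-5 the differences between the fractions were -1.01, -1.33, 0.39, -1.07 and -0.12 (limma adjusted p = 0.0639 to 0.814). At an unadjusted limma p under 0.05 the polysomal difference was below the nonpolysomal one for 20 of 23 major sperm proteins, 3 of 27 other sperm genes and 17 of 33 proteasome genes, and above it for 16 of 45 intestinal genes, where 1349 of the 13333 probe sets were below and 1381 above. These lists were not alone in this. Counts above and below were 31 and 1 of 92 cuticle collagens, 7 and 0 of 18 shape collagens, and 11 and 0 of 40 maternal genes. They were 31 and 13 of 122 immune effectors and lectins, 0 and 15 of 57 mitochondrial ribosomal genes, and 6 and 20 of 76 molting genes. For eIF4E isoforms they were 0 and 3 of 5.

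**Figure D5:**
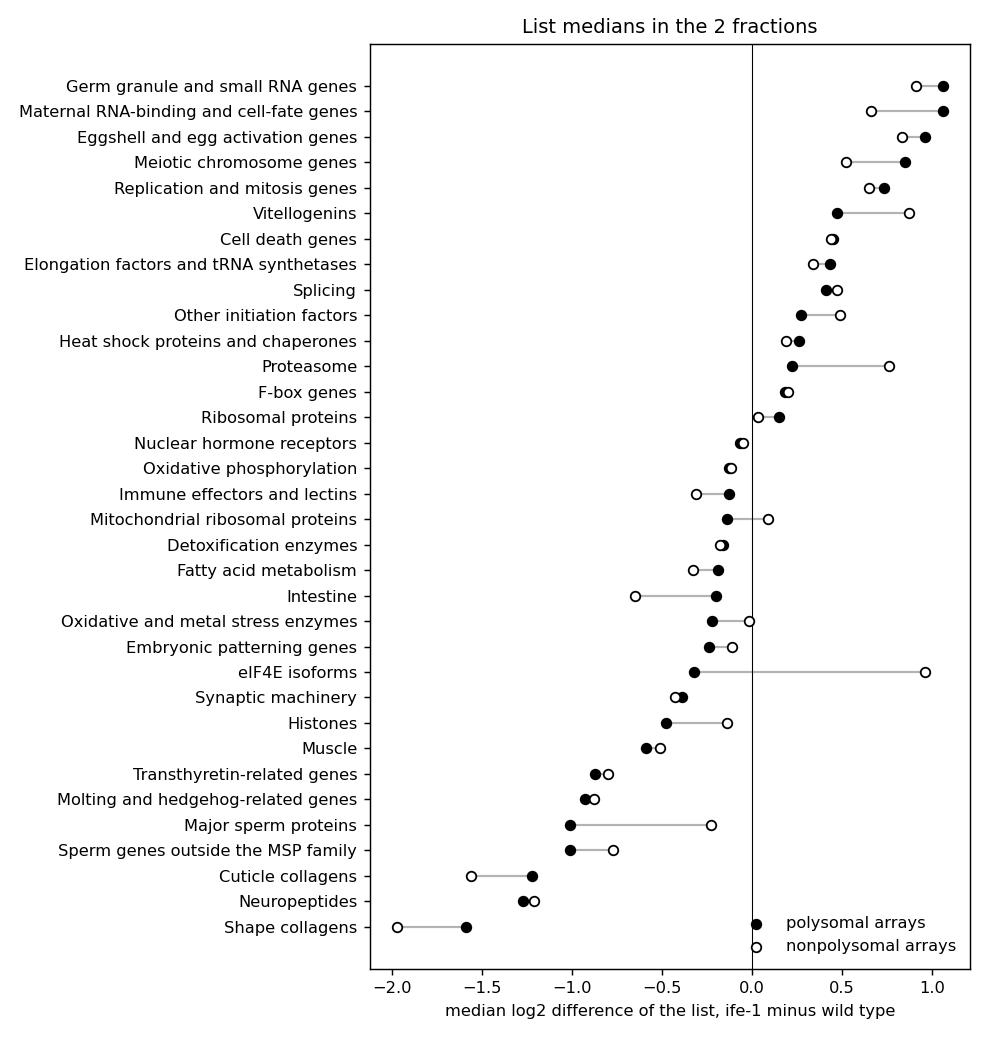
Median log2 difference, ife-1 minus wild type, of 34 gene lists on the polysomal arrays (filled circles) and on the nonpolysomal arrays of the same cultures (open circles). For most lists both medians lie on the same side of 0. The gap is widest for eIF4E isoforms (-0.32 and 0.96) and also wide for major sperm proteins (-1.01 and -0.23) and proteasome genes (0.22 and 0.76).

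The shares of called genes were uneven over the chromosomes. By the chromosomes of the WBcel235 annotation, 9.62% of 1414 X-linked genes were higher in the mutant and 24.4% were lower, with a median of -0.19. On chromosome I 24.0% of 1734 genes were higher and 13.1% lower (median 0.18), and on chromosome III 21.0% of 1636 were higher and 13.6% lower. Chromosomes II, IV and V had 19.7%, 18.4% and 16.1% higher and 17.5%, 16.1% and 18.5% lower. These shares are a description, and no test of the chromosomes was made.

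The authors' deposited table gives the mean over the sets of the fold of wild-type over ife-1 polysomal signal, computed from unnormalized signals. In the authors' deposited table that fold was above 2 for 1562 probe sets and below 0.5 for 870. In the authors' deposited table it was 59.5 for ife-1, 107 for B0554.1, 83.3 for col-84, 0.0263 for C38D9.2 and 0.307 for oma-2. Of 1987 genes with several probe sets 950 had at least 1 called. In 428 of these all probe sets were called alike, and in 3 they were called in opposite directions.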

How the data were processed

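Polysomal RNA of 6 cultures, 3 per genotype, was compared, and the labels gave the groups. Each deposited intensity is the signal of a probe set, which per the labels is unprocessed Affymetrix output; its software and scaling are not stated in these sources. Detection filtering by the authors reduced 22626 probe sets to 13372, per the file headers. Detection calls in the deposited workbook were usable per group only. The workbook's ratio is the authors' mean fold of wild-type over ife-1 polysomal signal. A further 45 columns of per-sample values were left aside.

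Without 39 controls, 13333 probe sets were tested. Of these 12616 had 1 gene in the platform annotation, 459 several and 258 none, and 12595 of the 12616 were found in the RefSeq table. A gene was represented by its brightest probe set. The floor for signals was 1 (5 values, 3 of them polysomal). All 12 arrays were quantile-normalized on the log2 scale, which makes every value relative to the other mRNAs of its array. The test was limma 3.58.1 in R 4.3.3 (lmFit and eBayes, no trend), adjusted by Benjamini-Hochberg across the 13333 probe sets at 0.05. For the fractions, limma was run on each culture's polysomal minus nonpolysomal log2 signal. pandas 2.3.3 and matplotlib 3.10.9 in Python 3.11.15 made tables and plots. For a probe set undetected throughout a group, the fold is a bound, computed against the larger of its own signal and the weakest signal reliably called present on that array.

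The 34 gene lists and the genes to be named were chosen with earlier results of these data known, so list counts are read against the share over all genes and carry no test. Named were ife-1 to ife-5, the 15 largest rises and 15 largest falls among called genes without overlap and detected on all 3 arrays of a genotype, and per list the 2 smallest p in each direction, 147 genes in all. The text names part of these, and exceptions are marked.

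The deposited outline of the procedure pairs the genotypes within growth sets. Same-numbered cultures' deviations from the genotype mean correlated, across probe sets, at -0.089, -0.079 and 0.066. The main test has no block, and the replicate block is an alternative. Further alternatives were unnormalized signals, median scaling, quantile normalization of the polysomal arrays alone, scaling on 18 bacterial controls, a variance trend, an offset of 50, only brighter or only detected probe sets, a fit of all 4 groups, and omission of each set or array. List counts under these settings were added after the data were seen. In 5 simulations over 13333 probe sets with 200 changed, the test found 34.6% of 2-fold and 79.8% of 4-fold changes, and 5.77% of its calls were false. The simulated noise was independent between probe sets and held no culture effect, and in the data 34.9% of probe sets were called. These rates therefore do not carry over to the data.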

Additional observations from a re-analysis of the deposited data

Results flagged for a closer look

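In 3 of the named genes the genotype difference in polysomal RNA differed from that in nonpolysomal RNA of the same cultures (limma on the difference of the fractions, adjusted over all probe sets). For cyp-35A2 the polysomal difference exceeded the nonpolysomal one by 2.07 on the log2 scale (adjusted p = 0.0267), with 2.48 in polysomal and 0.41 in nonpolysomal RNA. Its nonpolysomal signal was called present on 0 of 3 wild-type arrays and 2 of 3 mutant arrays, so the value there lies near the limit of detection. For elo-4 the difference between the fractions was -1.97 (adjusted p = 0.0403), with -2.80 and -0.83. For iscu-1 it was -2.49 (adjusted p = 0.0267), with -1.02 and 1.47. It was called present on 1 of 3 wild-type nonpolysomal arrays. With the growth set as a replicate block no probe set passed this test, and the cause of the differences was not tested.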

How the results depend on the processing

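For 34 named genes, those of the eIF4E family and the largest rises and falls, 621 values were recomputed under 19 settings. Of these 601 kept direction and side of the threshold, 20 kept direction but missed the threshold (14 of them with a whole set left out), and 0 reversed. Apart from the eIF4E isoforms these genes were picked as the largest called differences without overlap. Their counts therefore do not speak for the other calls. Probe sets called higher and lower in polysomal RNA (2519 and 2132) stayed within 1.5 times under each scaling, filter on present calls, offset, trend or wider fit that was run, and with the replicate block (1951 and 1815). Among brighter probe sets alone there were 1673 and 1357, where fewer probe sets were tested. Leaving out 1 set or 1 array gave 34 to 3114 higher and 135 to 2845 lower. The difference between fractions (4 higher, 13 lower) was unstable: 3 and 6 with signals as deposited, 4 and 8 with median scaling, 286 and 256 among brighter probe sets, 260 and 349 with an offset of 50, and 0 and 0 with the replicate block, where limma gave 1200 and 1269 at an unadjusted p under 0.05. Without each set it was 0 and 0, with 643 to 1808 and 735 to 1651 at that level. The cause was not tested. With the growth set as a replicate block, list counts were more than 1.5 times smaller for elongation factors (4 higher), proteasome (3), heat shock proteins (7 higher), major sperm proteins (1 lower), other sperm genes (1) and embryonic patterning genes (2 lower, 0 higher). Low signals limit the genes with no present call, which are given as bounds.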

Other observations

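Gene families outside the lists were described by symbol, for the 82 symbol classes with at least 8 measured genes and no listed member. These classes were looked at after the values were seen, so they are a description without a test. The highest shares of genes called higher in ife-1 polysomal RNA, where 18.3% of all genes were, belonged to nuclear pore genes (npp), WD-repeat genes (wdr) and ubiquitin-specific protease genes (usp). Of 25 npp genes 17 were higher and 0 lower, with a median of 0.84 in polysomal and 0.84 in nonpolysomal RNA and a range from 0.13 for npp-20 to 1.33 for npp-6. Of 11 wdr genes 7 were higher (median 0.82), up to 1.71 for wdr-5.3, and of 8 usp genes 5 were higher (median 0.78), up to 1.76 for usp-33.

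The highest shares of lower genes, against 17.0% of all genes, belonged to the classes abu, bus and idpp. All 9 measured abu genes, named for their activation when the unfolded protein response is blocked, were lower, from -2.23 for abu-6 to -0.91 for abu-12, with a median of -1.82 in polysomal and -1.26 in nonpolysomal RNA. Of 9 bus genes, whose mutants resist a bacterium that adheres to the worm's surface, 8 were lower (median -1.12), down to -1.90 for bus-12. Of 8 idpp genes 7 were lower (median -1.28), down to -1.71 for idpp-12.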
